A study of Bos taurus with 61 samples.

Results

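The 46 genes described here build the contractile unit of striated muscle, the sarcomere, or drive, fuel and turn over its contraction. Members were chosen by symbol: a gene was taken where the authors' tables name it by that symbol, by the matching bovine UniProt entry, or by an identifier that the study pairs with the symbol, and the rule itself uses no expression value. Of the 46 symbols 43 were found, each in 1 place, 15 by symbol, 19 by UniProt entry and 9 by pairing, among 24616 genes in all. ACTN3, TNNC2 and SLN were not matched and are not analysed here. The 43 genes comprised 11 of the actin filament and its regulators, 7 of the myosin light chains and myosin-binding proteins, 12 of titin, the M-band and the Z-disc, 6 of excitation and calcium handling, 5 of energy and oxygen supply and 2 muscle ubiquitin ligases.

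The POST group held post-pubertal Brangus heifers, sampled in the luteal phase of the estrous cycle, and the PRE group held pre-pubertal Brangus heifers, which were younger and lighter. All were crosses of 3/8 Brahman and 5/8 Angus from 1 breeding herd, with 4 heifers per stage, and the 8 tissues of a stage came from the same animals. The 61 RNA-Seq libraries, 31 POST and 30 PRE, covered 8 tissues, with 3 or 4 libraries per tissue and stage by the labels. The tissues were longissimus dorsi muscle, hypothalamus, pituitary gland, uterus (a section of the horn), endometrium, ovary, adipose tissue and liver. The authors' headings call the adipose tissue subcutaneous, whereas their sampling methods place it in the abdominal cavity, beside the spine and pelvis. Levels are RPKM, read counts divided by exon length and by the size of the library, so that genes can be compared with each other.

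Only the authors' mean of each tissue and stage was used, so no error, number of replicates or test stands beside any value here, and the spread between heifers is unknown. The difference of a gene between the stages is log2(POST mean RPKM + 0.2) minus log2(PRE mean RPKM + 0.2), taken where the gene reached 0.2 RPKM in at least 1 stage, and genes at least 4-fold apart (2 on this scale) were counted. This is a rule of size and not a test. Summed mean unique reads per group ranged from 17109554 to 27132722, and the summed levels of liver plasma protein genes, pituitary hormone genes and skeletal myosin heavy chains were each highest in the labelled tissue. Some groups held more of another tissue's genes than their counterpart of the other stage: liver plasma protein genes in POST adipose tissue, pituitary hormone genes in POST ovary, and smooth muscle genes in POST muscle and PRE endometrium. Their values are given beside the results they touch.

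In a sarcomere, myosin filaments pull on actin filaments, titin spans the structure as a spring, and the Z-disc and the M-band anchor the filaments at the ends and in the middle. Contraction starts when the membrane is depolarised and calcium leaves the sarcoplasmic reticulum through the ryanodine receptor. Calcium binds troponin, tropomyosin then frees the actin surface, and the reticulum's calcium pump ends the contraction. Fast and slow fibres carry different isoforms of many of these proteins.

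In longissimus dorsi muscle, the long muscle of the back, the 43 genes held 26.6% of the summed RPKM of all genes in POST and 28.2% in PRE heifers. The median gene of the set stood at 1013 RPKM in POST and 1015 RPKM in PRE muscle. Outside muscle the set took between 0.0360% of the summed RPKM in PRE liver and 0.575% in POST uterus. Genes of the set were thus a large part of the muscle message and under 1% of the message elsewhere.

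**Figure D1:**
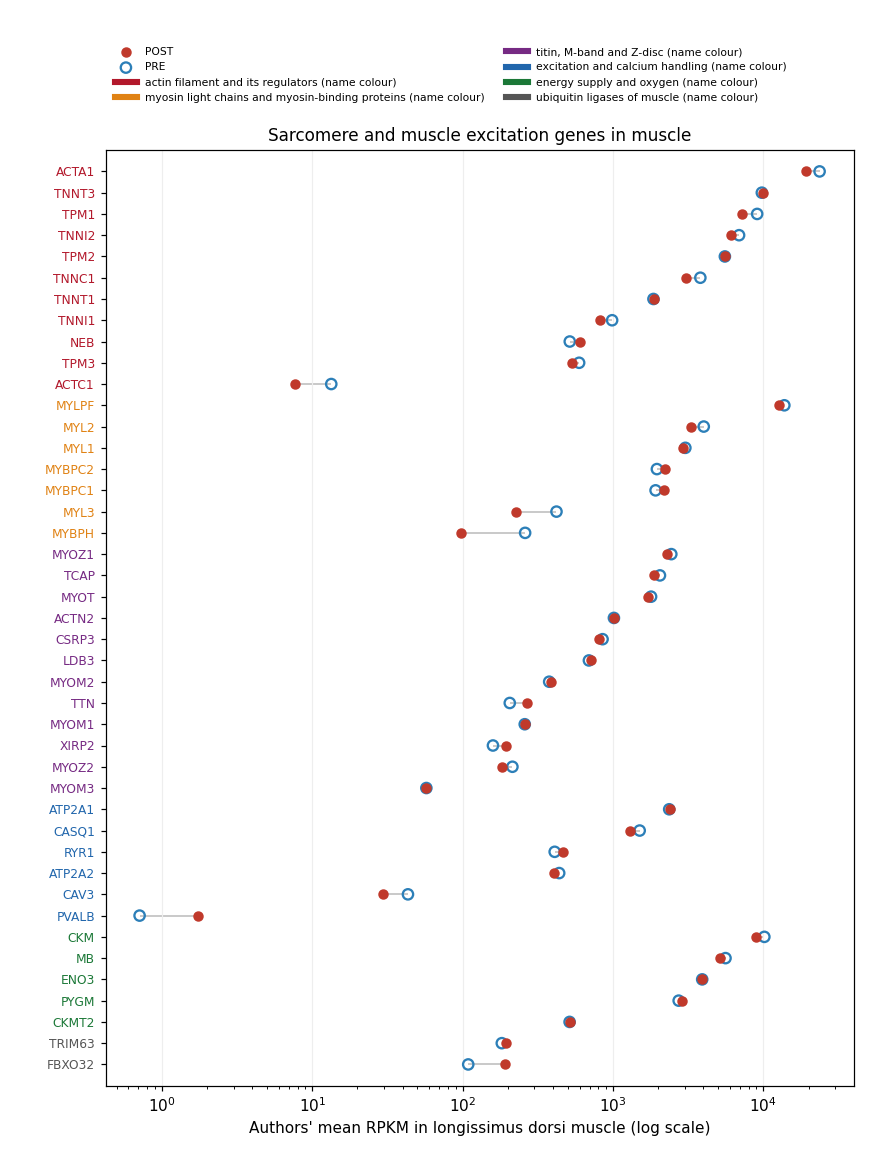
Mean RPKM of each of the 43 genes in longissimus dorsi muscle on a log scale, with filled red points for POST and open blue points for PRE heifers and gene names coloured by role; a grey line joins the stages of a gene. The points of a gene lie close together for most genes, from PVALB at 1.73 RPKM in POST and 0.712 RPKM in PRE up to ACTA1 at 19079.8 RPKM in POST and 23673 RPKM in PRE muscle.

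The actin filament led. ACTA1, the actin of skeletal muscle (chromosome 28, 419154 to 421910, UMD3.1), had the highest level of the set, 19079.8 RPKM in POST and 23673 RPKM in PRE muscle. The fast troponins TNNT3 (9910.1 RPKM in POST and 9775 RPKM in PRE muscle) and TNNI2 (6089.6 RPKM in POST and 6899 RPKM in PRE) stood above their slow counterparts TNNT1 (1866 RPKM in POST and 1859 RPKM in PRE) and TNNI1 (814 RPKM in POST and 988 RPKM in PRE). TNNC1, the calcium-binding troponin of slow and cardiac muscle, had 3053 RPKM in POST and 3813 RPKM in PRE muscle. The fast form was thus the higher one for troponins T and I, and the fast troponin C was not among the genes matched. Tropomyosins TPM1 (7264 RPKM in POST and 9099.9 RPKM in PRE) and TPM2 (5539.9 RPKM in POST and 5551 RPKM in PRE) were well above TPM3 (536 RPKM in POST and 596 RPKM in PRE), the tropomyosin of slow fibres. NEB, nebulin, which runs along the actin filament, had 599 RPKM in POST and 516 RPKM in PRE muscle, and ACTC1, the cardiac actin, had the lowest level of this role, 7.64 RPKM in POST and 13.4 RPKM in PRE.

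Of the myosin light chains, MYLPF, the regulatory chain of fast fibres, was the second gene of the whole set at 12643 RPKM in POST and 13797 RPKM in PRE muscle. MYL2, its slow counterpart, had 3303 RPKM in POST and 4017 RPKM in PRE, MYL1, the fast essential chain, had 2929 RPKM in POST and 3031 RPKM in PRE, and MYL3, the slow essential chain, had 228 RPKM in POST and 421 RPKM in PRE. The fast chain exceeded the slow one in each pair and stage. The myosin-binding proteins MYBPC1 (2179 RPKM in POST and 1921 RPKM in PRE) and MYBPC2 (2233 RPKM in POST and 1960.3 RPKM in PRE), the slow and fast C-proteins, were near each other in level, and MYBPH (97.4 RPKM in POST and 261 RPKM in PRE) was lower.

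Among the genes of titin, the Z-disc and the M-band, the highest were MYOZ1 (2298 RPKM in POST and 2444 RPKM in PRE), a calcineurin-binding Z-disc protein of fast fibres, TCAP (1873 RPKM in POST and 2054 RPKM in PRE), the cap of titin at the Z-disc, and MYOT (1713 RPKM in POST and 1793 RPKM in PRE), myotilin. The actin cross-linker ACTN2 had 1013 RPKM in POST and 1015 RPKM in PRE muscle, CSRP3, a LIM protein of the Z-disc, 812 RPKM in POST and 853 RPKM in PRE, and LDB3 716 RPKM in POST and 692 RPKM in PRE. These 6 genes led their role, and the others were lower. MYOM2 had 386 RPKM in POST and 377 RPKM in PRE, TTN 269 RPKM in POST and 206 RPKM in PRE, MYOM1 262 RPKM in POST and 259 RPKM in PRE, XIRP2 196 RPKM in POST and 159 RPKM in PRE, MYOZ2 184 RPKM in POST and 215 RPKM in PRE and MYOM3 57.6 RPKM in POST and 57.4 RPKM in PRE muscle.

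ATP2A1, the calcium pump of fast fibres, led the excitation and calcium genes at 2396 RPKM in POST and 2367 RPKM in PRE muscle. CASQ1, which stores calcium in the reticulum, had 1298 RPKM in POST and 1506 RPKM in PRE, RYR1, the calcium release channel, 469 RPKM in POST and 409.9 RPKM in PRE, and ATP2A2, the pump of slow fibres, 408 RPKM in POST and 439 RPKM in PRE. CAV3, a membrane scaffold of muscle, was low at 29.4 RPKM in POST and 43.3 RPKM in PRE. PVALB, a soluble calcium buffer that marks fast fibres of rodents, was lowest of all 43 genes in muscle of both stages.

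The energy genes were abundant throughout. CKM, muscle creatine kinase, had 8954 RPKM in POST and 10159.8 RPKM in PRE muscle, MB, myoglobin, 5135 RPKM in POST and 5605 RPKM in PRE, ENO3, muscle enolase, 3891 RPKM in POST and 3923 RPKM in PRE, PYGM, muscle glycogen phosphorylase, 2869 RPKM in POST and 2736 RPKM in PRE, and CKMT2, the mitochondrial creatine kinase, 515 RPKM in POST and 515 RPKM in PRE. The ubiquitin ligases TRIM63 (195 RPKM in POST and 182 RPKM in PRE) and FBXO32 (191 RPKM in POST and 109 RPKM in PRE), which mark muscle proteins for breakdown, were at the low end.

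Of the 43 genes, 42 were highest in muscle among the 8 tissues in each stage. At least 4-fold over every other tissue, on the scale with 0.2 added, were 40 genes in POST heifers, where 1.72% of all genes passed that rule, and 41 in PRE heifers, where 1.87% did. At least 100-fold over every other tissue were 27 genes in POST, against 0.43% of all genes, and 27 in PRE, against 0.448% of all genes. That these genes are highest in muscle is what they are known for, and the counts describe how wide the gap was. The exceptions to the 4-fold rule were PVALB in both stages, ACTC1 and ATP2A2 in POST and FBXO32 in PRE heifers. PVALB was highest in hypothalamus, with 25.2 RPKM in POST and 16.2 RPKM in PRE.

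**Figure D2:**
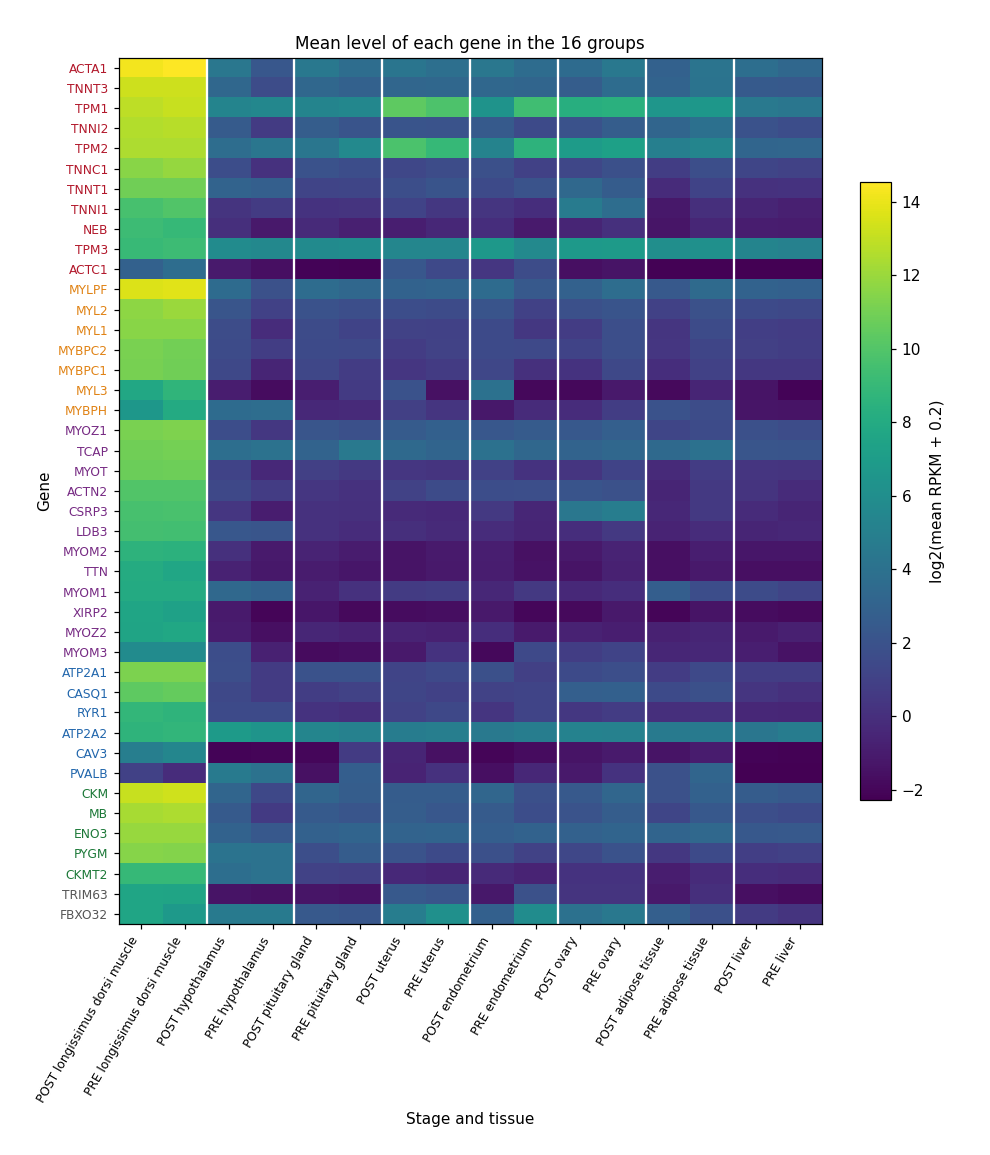
Colour map of log2(mean RPKM + 0.2) for the 43 genes (vertical axis, names coloured by role) in the 16 groups (horizontal axis, POST left of PRE within each tissue). The muscle columns are bright for almost every gene, while TPM1 and TPM2 are also bright in uterus, PRE endometrium and ovary, and TPM3 and ATP2A2 in every tissue.

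Between the stages, muscle differed little in these genes. None of the 43 was at least 4-fold apart, where 0.496% of all compared genes were higher and 0.233% lower in POST muscle. At 2-fold, 1 gene was higher and 1 lower, against 2.02% and 1.52% of all genes. The median difference was -0.05, against 0.05 over all 13300 genes compared. The gene 2-fold higher in POST was PVALB (a log2 difference of 1.08), on 37.5 mean reads in POST and 14.2 in PRE muscle. The gene 2-fold lower was MYBPH (a log2 difference of -1.42, chromosome 16, 760056 to 768350), on 4634.8 mean reads in POST and 12494.8 in PRE muscle. The next differences were those of MYL3 (a log2 difference of -0.89), FBXO32 (a log2 difference of 0.81) and ACTC1 (a log2 difference of -0.79). MYL3 and ACTC1 were lower in POST muscle and FBXO32 was higher, all by less than 2-fold. ACTA1 and ACTC1 encode nearly identical proteins, and how reads shared by such genes were treated in the RPKM is not given in the sources used here.

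Of the 9 genes of slow fibres, 8 were lower in POST muscle, with a median difference of -0.22. Of the 9 genes of fast fibres, 5 were lower and 4 higher, with a median of -0.05. MYBPC1, the slow C-protein, and TPM1 appear in the ratios below but were counted in neither class. MYBPC1 was higher in POST muscle (2179 RPKM in POST and 1921 RPKM in PRE) and TPM1 lower (7264 RPKM in POST and 9099.9 RPKM in PRE). These are small differences, under 2-fold in every case but PVALB, and no error can be set beside them. The ratio of a fast isoform to its slow counterpart showed the same. TNNI2 over TNNI1 was 7.48 in POST and 6.98 in PRE muscle, TNNT3 over TNNT1 was 5.31 in POST and 5.26 in PRE, and MYLPF over MYL2 was 3.83 in POST and 3.43 in PRE. MYOZ1 over MYOZ2 was 12.5 in POST and 11.4 in PRE, ATP2A1 over ATP2A2 was 5.88 in POST and 5.39 in PRE, and MYBPC2 over MYBPC1 was 1.02 in both stages. The ratio of TPM1, which fast fibres use, to TPM3 was 13.5 in POST and 15.3 in PRE muscle. MYL1 over MYL3 differed most, at 12.9 in POST and 7.19 in PRE, a ratio of ratios of 1.79 that came from the lower MYL3.

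The heavy chains to which these light chains bind were not members of the set. MYH1, the chain of fast IIx fibres, had 9755 RPKM in POST and 9578 RPKM in PRE muscle, MYH2, of IIa fibres, 2963 RPKM in POST and 2576 RPKM in PRE, and MYH7, of slow fibres, 1915 RPKM in POST and 1916 RPKM in PRE. None of the 5 heavy chains found, of 7 listed, was 4-fold apart in muscle. Of 38 other sarcomere genes none was 4-fold apart, of 32 other excitation and calcium genes 1 was higher (CHRND, an acetylcholine receptor subunit, 7.64 RPKM in POST and 1.15 RPKM in PRE), and of 21 compared other muscle energy genes 1 was higher (CKB, the brain-type creatine kinase, 20.5 RPKM in POST and 4.40 RPKM in PRE). Genes of smooth muscle behaved differently from the set: 7 of 11 were at least 4-fold higher in POST muscle and none lower, with a list median of 2.62. MYH11, the smooth muscle myosin, had 174 RPKM in POST and 6.90 RPKM in PRE muscle, and ACTG2, a smooth muscle actin, 77.2 RPKM in POST and 3.16 RPKM in PRE. Adipocyte genes were lower, 3 of 7 by 4-fold, among them ADIPOQ (11.1 RPKM in POST and 93.1 RPKM in PRE). Their part in the small differences of the set was not tested, and in whole tissue fewer cells of a type and less RNA per cell cannot be told apart.

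Outside muscle, the median gene of the set stood at a small share of its own muscle level, with a wide spread around it in several tissues. For each gene with at least 10 RPKM in muscle (41 in POST and 42 in PRE), its RPKM in a tissue was expressed as a percentage of its RPKM in muscle of the same stage. The median share ranged from 0.0612% in PRE liver to 0.187% in PRE ovary, and a group's median is called the common share here. Within 2-fold of it were between 9 of 41 genes, in POST ovary, and 32 of 41, in POST pituitary gland, endometrium and liver, with 13 of 42 in PRE hypothalamus and 15 of 42 in PRE endometrium. In 22 genes the share never reached 4 times the group's median in any of the 14 groups, a limit chosen after the values were seen. Since that limit used the levels of both stages, it left out genes that stood high in either stage, and the direction in which the 22 differ between the stages is in part set by the choice. They were ACTA1, NEB, TNNC1, TNNI2 and TNNT3 of the actin filament, MYL1, MYL2, MYLPF, MYBPC1 and MYBPC2 of the myosin filament, TTN, ACTN2, MYOM2, MYOT, MYOZ1, MYOZ2 and XIRP2 of titin, M-band and Z-disc, ATP2A1 and CASQ1 of calcium handling, and CKM, MB and ENO3 of energy supply. They include 8 of the 10 highest genes in muscle, TPM1 and TPM2 being the others.

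**Figure D3:**
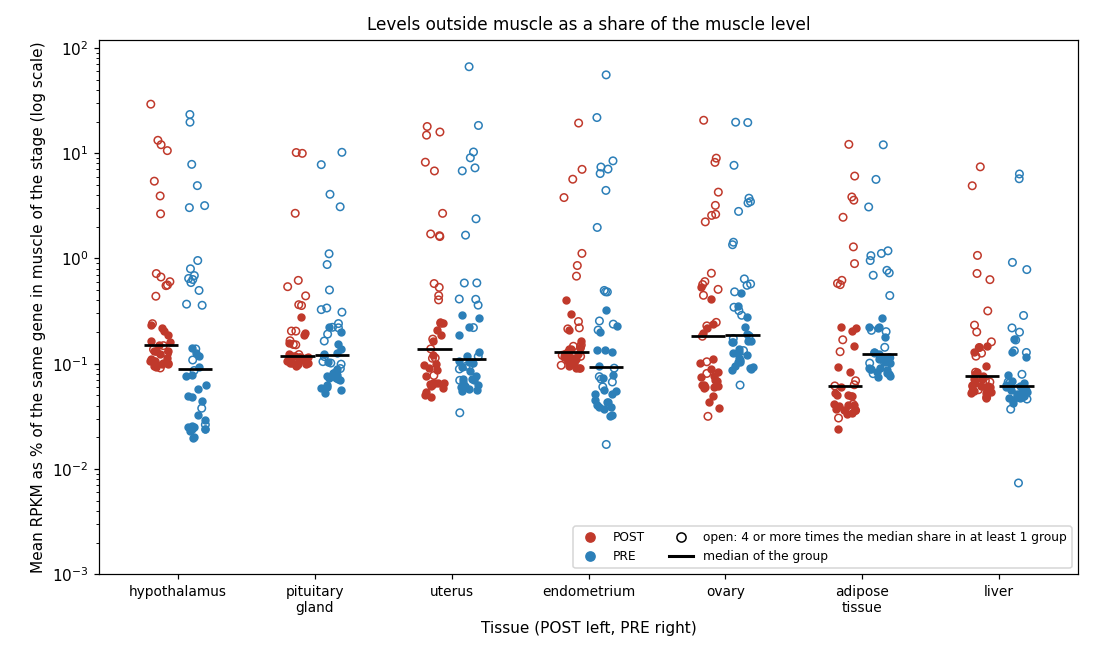
Mean RPKM of each gene as a percentage of its RPKM in muscle of the same stage (log scale) in the 7 other tissues, POST in red on the left and PRE in blue on the right of each tissue; open points are genes that reach 4 or more times the median share in at least 1 group, and black bars are group medians. Filled points have a median of 0.127% in POST and 0.0383% in PRE hypothalamus, while open points reach 66.3% for FBXO32 in PRE uterus.

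The median share of these 22 genes was 0.127% in POST and 0.0383% in PRE hypothalamus, 0.115% in POST and 0.0793% in PRE pituitary gland, and 0.0713% in POST and 0.0808% in PRE uterus. It was 0.115% in POST and 0.0536% in PRE endometrium, and 0.0723% in POST and 0.127% in PRE ovary. Adipose tissue had 0.0493% in POST and 0.103% in PRE heifers, and liver 0.0625% in POST and 0.0562% in PRE heifers. The median lay between 0.0383% and 0.127% throughout, higher in POST than in PRE hypothalamus and endometrium, and lower in POST than in PRE ovary and adipose tissue. In POST hypothalamus the 22 shares lay between 0.0931% and 0.235%, a spread of 2.53-fold over genes whose muscle levels ran from 184 RPKM (MYOZ2) to 19079.8 RPKM (ACTA1). This was the narrowest of the 14 groups, and the same 22 genes spread 7.22-fold in PRE hypothalamus, 9.39-fold in POST adipose tissue, 10.1-fold in PRE endometrium and 14.2-fold in POST ovary. The limit that chose the 22 genes capped the top of each spread, so a narrow spread is in part set by the choice. Over all 41 genes with a share, POST hypothalamus ran from 0.0911% to 29.2%. Shares taken from mean unique reads in place of RPKM kept the order of the stages within each tissue for the median of the 22 genes, such as 0.138% in POST and 0.0491% in PRE hypothalamus and 0.0467% in POST and 0.105% in PRE adipose tissue, but the order of the groups across tissues changed, and MYOZ2 then left the common share and reached 6.38% in POST endometrium.

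Myosin heavy chains, which are not members, had like shares, with a median over the 4 chains measured of 0.226% in POST and 0.0958% in PRE hypothalamus and 0.0352% in POST and 0.106% in PRE adipose tissue. Other muscle genes stood higher: over the 204 genes outside the set with at least 10 RPKM in muscle and at least 4-fold over every other tissue there in both stages, the median share was 1.71% in POST and 1.47% in PRE hypothalamus, 1.71% in POST and 1.64% in PRE ovary, and 0.731% in POST and 0.817% in PRE adipose tissue. Over all members with a share the median was lower than this too, at 0.149% in POST and 0.0891% in PRE hypothalamus. The 204 genes were not matched to the set in muscle level or in fold over other tissues. The genes of the common share were also chosen by their low shares. The contrast therefore cannot tell whether the low share is particular to the set. In most groups the listed genes of other organs had median shares of the same size as the set outside their home tissue. The median of 12 liver plasma protein genes was 0.0501% of the liver level in POST and 0.0969% in PRE muscle, and that of 7 pituitary hormone genes was 0.107% of the pituitary level in POST and 0.0151% in PRE hypothalamus. The same medians were far higher in a few groups: 3.65% for the liver genes in POST adipose tissue and 14% for the hormones in POST ovary. What the low shares come from was not tested.

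The other members stood clear of the common share, in patterns that differed by tissue. TPM3, FBXO32 and ATP2A2 did so in all 14 groups: TPM3 at 5.72% to 20.5% of its muscle level, ATP2A2 at 4.90% to 29.2% and FBXO32 at 0.720% to 66.3%. TPM3 and ATP2A2 also serve cells that are not muscle, ATP2A2 as the housekeeping calcium pump of the endoplasmic reticulum. The remaining 17 genes with a share did so in some groups only, and PVALB, under 10 RPKM in muscle, has no share.

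**Figure D4:**
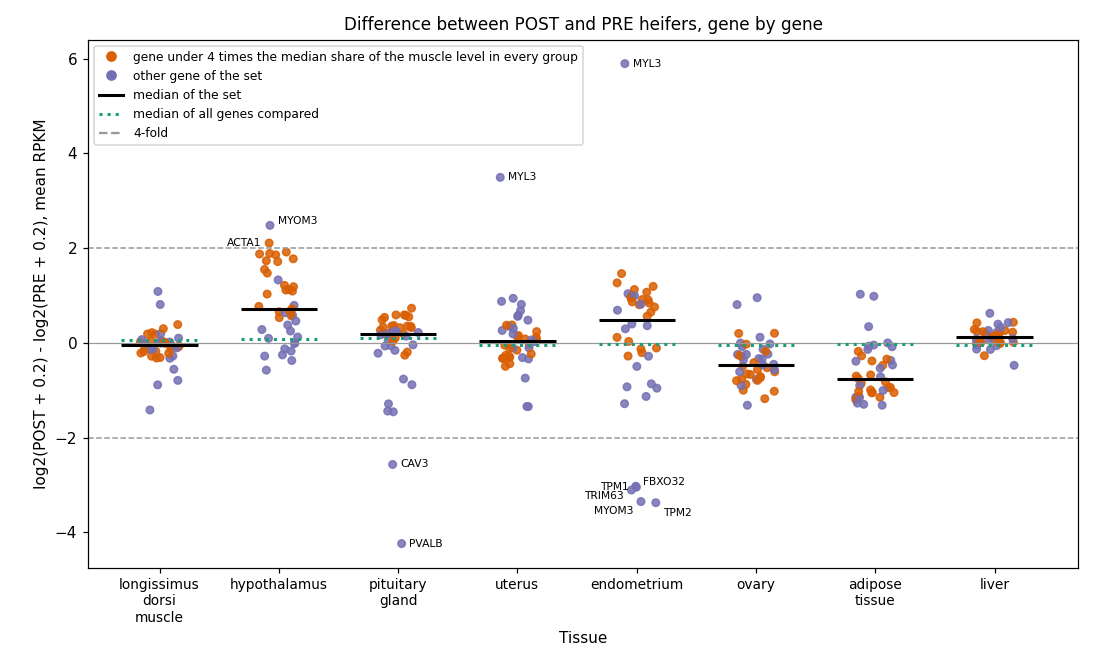
Difference between POST and PRE heifers, log2(POST + 0.2) minus log2(PRE + 0.2) of mean RPKM, for each gene compared (points) in the 8 tissues; orange points are the 22 genes under 4 times the median share in every group, black bars the median of the set, green dotted bars the median of all genes compared and dashed lines 4-fold. The orange points sit above 0 in hypothalamus, where all 22 are higher in POST heifers, and below 0 in adipose tissue, where the 21 compared are lower, and the genes past 4-fold are named.

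In the hypothalamus 2 genes were at least 4-fold higher in POST heifers and none lower, of 41 compared, against 0.215% and 0.202% of all genes. MYOM3, an M-band protein (chromosome 2, 129388770 to 129437616), had 3.12 RPKM in POST and 0.395 RPKM in PRE hypothalamus (a log2 difference of 2.48), on 443 mean reads in POST and 62.3 in PRE. ACTA1 had 21.1 RPKM in POST and 4.73 RPKM in PRE (a log2 difference of 2.11), on 814 mean reads in POST and 176 in PRE. Both are low beside the muscle levels, and with 1 added to the RPKM in place of 0.2 neither was past 4-fold. TNNI2 lay just short of the 4-fold limit at a log2 difference of 1.92 and ACTA1 just past it.

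Many more genes of the set were higher by less. At 2-fold, 18 of 41 (43.9%) were higher in POST hypothalamus and none lower, against 1.72% and 1.48% of all genes, and the median difference was 0.72, against 0.07 over all genes. MYBPC1 (2.33 RPKM in POST and 0.485 RPKM in PRE), MB (5.41 RPKM in POST and 1.33 RPKM in PRE), CKM (9.03 RPKM in POST and 2.35 RPKM in PRE), MYL1 (2.95 RPKM in POST and 0.72 RPKM in PRE), TNNT3 (9.92 RPKM in POST and 2.85 RPKM in PRE) and MYLPF (11.9 RPKM in POST and 3.49 RPKM in PRE) had log2 differences between 1.72 and 1.89. Over all 41 genes 33 were above 0 and 8 below. Those 6 are among the 22 genes chosen by their shares, of which all were above 0 there and 16 higher by at least 2-fold, a description of chosen genes. The heavy chains MYH1 (9.93 RPKM in POST and 2.46 RPKM in PRE) and MYH2 (3.31 RPKM in POST and 0.575 RPKM in PRE, a ratio past 4-fold on the scale with 0.2 added), which are no members, were higher too.

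A further group of members stood above the common share in hypothalamus of both stages: TPM3, MYBPH, MYOM1, MYOM3, LDB3, TCAP, FBXO32, CKMT2, ATP2A2 and PYGM. All but MYOM3 were within 2-fold between the stages. ATP2A2 had the highest level of the set there, 119 RPKM in POST and 86.5 RPKM in PRE, followed by TPM3 (56.7 RPKM in POST and 46.7 RPKM in PRE), TPM1 (40.1 RPKM in POST and 45.2 RPKM in PRE) and FBXO32 (25.4 RPKM in POST and 25.4 RPKM in PRE). MYBPH had 11.7 RPKM in POST and 12.8 RPKM in PRE, 12.03% of its muscle level in POST and 4.92% in PRE hypothalamus. MYOM1 had 10.3 RPKM in POST and 7.87 RPKM in PRE, CKMT2 13.7 RPKM in POST and 16.4 RPKM in PRE, PYGM 17.3 RPKM in POST and 16.1 RPKM in PRE, TCAP 13.5 RPKM in POST and 16.4 RPKM in PRE and LDB3 4.77 RPKM in POST and 4.37 RPKM in PRE. PVALB had 25.2 RPKM in POST and 16.2 RPKM in PRE, a log2 difference of 0.64.

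Beside these values, pituitary hormone genes were higher in POST hypothalamus, 3 of 6 compared by at least 4-fold, with a sum over the 7 listed genes of 273 RPKM in POST and 50.3 RPKM in PRE. GH1, growth hormone, had 72.7 RPKM in POST and 7.24 RPKM in PRE, a log2 difference of 3.29 and larger than that of any member. Smooth muscle genes were lower, 3 of 11 by 4-fold, with ACTG2 at 1.26 RPKM in POST and 11.02 RPKM in PRE. Among other sarcomere genes ANKRD1 was higher (1.58 RPKM in POST and 0.167 RPKM in PRE) and DES, desmin, lower (5.86 RPKM in POST and 24.3 RPKM in PRE). DES is on both lists and was counted in each. Each hypothalamus mean holds 3 libraries by its fractions of reads, where 4 are labelled, and 2 hypothalamus libraries of the study had shorter reads. Which libraries entered the means is not known, and the part of any of these in the differences was not tested.

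**Figure D5:**
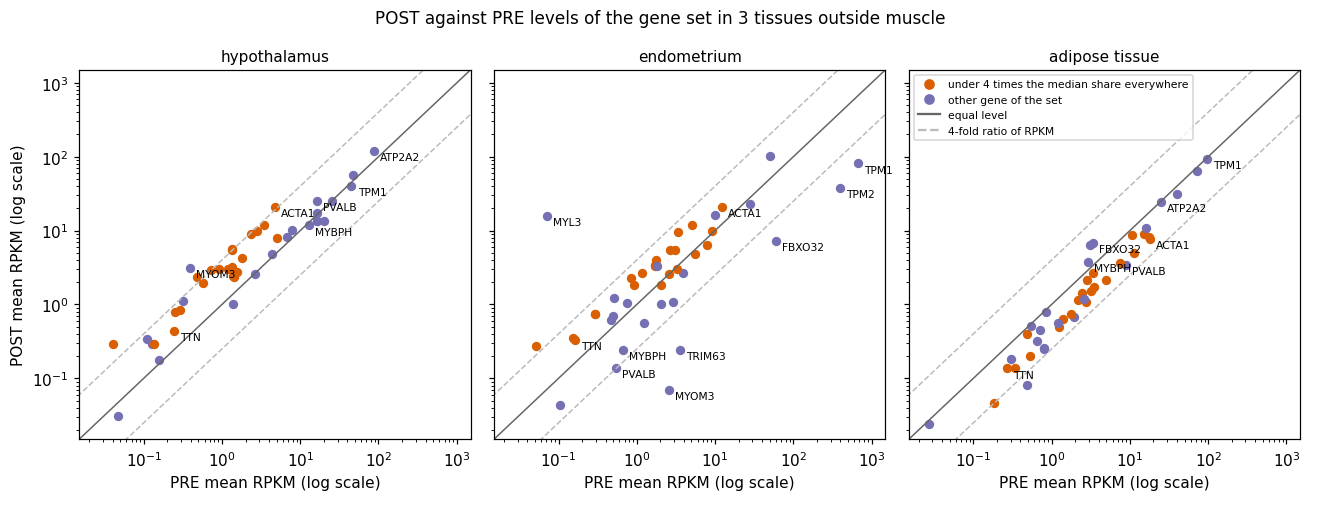
POST against PRE mean RPKM (both axes log scale) of the 43 genes in hypothalamus, endometrium and adipose tissue; orange points are the 22 genes under 4 times the median share in every group, the solid line marks equal levels and the dashed lines a 4-fold ratio of RPKM. The orange points run parallel to the line of equal levels, above it in hypothalamus and below it in adipose tissue, and MYL3 in endometrium (15.99 RPKM in POST and 0.072 RPKM in PRE) lies farthest from it.

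In the pituitary gland 2 of 41 genes were at least 4-fold lower in POST heifers and none higher, against 2.44% and 0.104% of all genes, and with 1 added in place of 0.2 the lower ones were 1. At 2-fold, 5 were lower and none higher, against 7.43% and 0.989% of all genes. PVALB (chromosome 5, 75550904 to 75568048) had 0.149 RPKM in POST and 6.39 RPKM in PRE pituitary (a log2 difference of -4.24), on 22 mean reads in POST and 127 in PRE, so that its reads differed less than its RPKM. CAV3 (chromosome 22, 17832937 to 17846997) had 0.06 RPKM in POST and 1.34 RPKM in PRE (a log2 difference of -2.57), on 3.25 mean reads in POST and 35 in PRE. MYL3 (0.347 RPKM in POST and 1.30 RPKM in PRE), TCAP (8.26 RPKM in POST and 22.8 RPKM in PRE) and TPM2 (19.8 RPKM in POST and 48.6 RPKM in PRE) were the other genes lower by 2-fold. The median of the set was 0.19, against 0.11 over all genes. The 22 genes chosen by their shares had a median of 0.34, again a description of chosen genes. The highest levels in POST pituitary were those of TPM3 (54.4 RPKM in POST and 60.8 RPKM in PRE), ATP2A2 (40.6 RPKM in POST and 34.2 RPKM in PRE), TPM1 (39.2 RPKM in POST and 45.6 RPKM in PRE) and ACTA1 (22.2 RPKM in POST and 13.3 RPKM in PRE). In PRE pituitary TPM2 came next after TPM3, and TCAP stood above ACTA1. Genes of other cell types were lower in POST pituitary as well, 5 of 7 endothelial genes by at least 4-fold, with CLDN5 at 0.637 RPKM in POST and 87.7 RPKM in PRE, and the myelin gene MBP at 10.8 RPKM in POST and 701 RPKM in PRE. Their part in the lower PVALB and CAV3 was not tested.

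In the uterus 1 of 42 genes was at least 4-fold higher in POST heifers and none lower, against 1.34% and 1.61% of all genes. It was MYL3 (chromosome 22, 53202766 to 53208551), with 3.67 RPKM in POST and 0.144 RPKM in PRE uterus (a log2 difference of 3.49), on 67.8 mean reads in POST and 3 in PRE. At 2-fold, MYL3 alone was higher and 2 genes were lower, against 5.32% and 7.25% of all genes. The lower ones were FBXO32 (28.4 RPKM in POST and 72.3 RPKM in PRE, a log2 difference of -1.34) and MYOM3 (0.255 RPKM in POST and 0.956 RPKM in PRE). The set's median was 0.04, against -0.04 over all genes.

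The uterus gave the highest level of any member outside muscle, TPM1 at 1302 RPKM in POST and 934 RPKM in PRE uterus, which is 17.9% of its muscle level in POST and 10.3% in PRE heifers. TPM2 had 880.5 RPKM in POST and 502 RPKM in PRE, TPM3 44.0 RPKM in POST and 43.2 RPKM in PRE, ATP2A2 27.7 RPKM in POST and 29.8 RPKM in PRE and TRIM63 5.24 RPKM in POST and 4.34 RPKM in PRE. TPM1 and TPM2 also encode the tropomyosins of smooth muscle, which forms the wall of the horn, and 8574 RPKM in POST and 6318 RPKM in PRE uterus came from 11 smooth muscle genes. ACTC1 had 4.68 RPKM in POST and 2.46 RPKM in PRE, and SMPX, a small muscle protein outside the set, 1.21 RPKM in POST and 24.3 RPKM in PRE, the largest difference among the other sarcomere genes in this tissue.

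The endometrium, the lining of the uterus, held the most genes past the 4-fold rule and the widest difference. Of 42 genes 1 was at least 4-fold higher and 5 lower in POST heifers, against 3.23% and 3.31% of all genes, and with 1 added in place of 0.2 the lower ones were 3. At 2-fold, 8 were higher and 7 lower, against 10.4% and 13.6% of all genes. MYL3 had 15.99 RPKM in POST and 0.072 RPKM in PRE endometrium (a log2 difference of 5.90), on 243 mean reads in POST and 1.33 in PRE, which puts it at 7.02% of its muscle level in POST and 0.0171% in PRE. It was thus the gene of the set with the widest difference in any tissue, and in the same direction as in uterus.

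The 5 lower genes were of 3 roles. TPM1 (chromosome 10, 47056204 to 47065846) had 81.1 RPKM in POST and 672 RPKM in PRE endometrium (a log2 difference of -3.05), on 2599 mean reads in POST and 13229 in PRE. TPM2 (chromosome 8, 60267452 to 60274815) had 37.6 RPKM in POST and 391.9 RPKM in PRE (a log2 difference of -3.37), on 2152 mean reads in POST and 16950 in PRE. The other 3 were the ubiquitin ligases and an M-band gene. FBXO32 (chromosome 14, 17919823 to 17951894) had 7.25 RPKM in POST and 60.5 RPKM in PRE (a log2 difference of -3.03), on 393 mean reads in POST and 2896 in PRE. TRIM63 (chromosome 2, 127615050 to 127630608) had 0.24 RPKM in POST and 3.59 RPKM in PRE (a log2 difference of -3.11), on 15.3 mean reads in POST and 179 in PRE, and MYOM3 had 0.069 RPKM in POST and 2.54 RPKM in PRE (a log2 difference of -3.35), on 21.3 mean reads in POST and 322 in PRE. In PRE heifers the endometrium had TPM1, TPM2, TRIM63 and FBXO32 at levels within 2-fold of the uterus, while in POST heifers it had them far below the uterus.

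Smooth muscle genes moved the same way: 9 of 11 were at least 4-fold lower in POST endometrium, with a summed level of 736 RPKM in POST and 4636 RPKM in PRE. ACTG2 had 34.5 RPKM in POST and 663 RPKM in PRE and MYH11 21.6 RPKM in POST and 469 RPKM in PRE, both over 15-fold lower. Of 34 other sarcomere genes 7 were lower and 2 higher. Among the lower ones was DES (40.6 RPKM in POST and 408 RPKM in PRE), which is also on the smooth muscle list. The higher ones were UNC45B, a myosin chaperone (2.31 RPKM in POST and 0.129 RPKM in PRE), and HSPB7 (4.17 RPKM in POST and 0.813 RPKM in PRE). Of 23 other excitation and calcium genes 2 were lower, JPH2 (0.477 RPKM in POST and 9.13 RPKM in PRE) and PLN (0.128 RPKM in POST and 2.45 RPKM in PRE), and of 21 other muscle energy genes FBP2 was higher (4.05 RPKM in POST and 0.857 RPKM in PRE). The part of the smooth muscle difference in that of the tropomyosins, the ligases and MYOM3 was not tested.

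Over all 42 genes, 26 were above 0 and 16 below in endometrium. ACTC1 (1.08 RPKM in POST and 2.92 RPKM in PRE) and PVALB (0.14 RPKM in POST and 0.545 RPKM in PRE) were the other genes lower by 2-fold. The median over the 42 was 0.48, against -0.03 over all genes. Of the 22 genes chosen by their shares 18 were above 0, 6 of them by at least 2-fold, with a median of 0.85. This again describes chosen genes: the choice left out every gene past 4-fold in endometrium, 1 higher and 5 lower. CKM had 9.50 RPKM in POST and 3.32 RPKM in PRE, MYBPC1 2.29 RPKM in POST and 0.835 RPKM in PRE and MYLPF 11.9 RPKM in POST and 5.10 RPKM in PRE endometrium. TPM3 (104 RPKM in POST and 50.4 RPKM in PRE) was also higher in POST and was the highest member in POST endometrium. In PRE endometrium TPM1, TPM2 and FBXO32 stood above it.

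In the ovary none of 42 genes was at least 4-fold apart, with 1.38% of all genes higher and 0.56% lower in POST ovary. At 2-fold none was higher and 4 were lower, against 4.1% and 2.42% of all genes: PVALB (0.267 RPKM in POST and 0.964 RPKM in PRE), MYBPC1 (0.948 RPKM in POST and 2.40 RPKM in PRE), MYL1 (1.44 RPKM in POST and 3.14 RPKM in PRE) and TNNT3 (6.18 RPKM in POST and 12.6 RPKM in PRE). The median was -0.46, against -0.05 over all genes, and 37 of 42 were below 0. By the authors' methods, POST ovary samples held corpus luteum as well as antral follicles, and PRE samples held antral follicles only. The 2 stages were thus not like tissue. Among luteal and granulosa genes, STAR had 652 RPKM in POST and 35.2 RPKM in PRE ovary. The part of the corpus luteum in the lower levels of the set was not tested. Levels were highest for TPM1 (309.7 RPKM in POST and 340 RPKM in PRE), TPM2 (123 RPKM in POST and 155 RPKM in PRE), TPM3 (110.2 RPKM in POST and 117 RPKM in PRE) and ATP2A2 (36.6 RPKM in POST and 33.7 RPKM in PRE).

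TNNI1 and CSRP3 stood out in the ovary itself. TNNI1, the slow troponin I (chromosome 16, 49293852 to 49303508), had 25.99 RPKM in POST and 13.3 RPKM in PRE ovary, and outside muscle and ovary it did not exceed 1.97 RPKM. CSRP3 (chromosome 29, 25994182 to 26014859) had 20.8 RPKM in POST and 28.8 RPKM in PRE ovary, on 516 mean reads in POST and 710.2 in PRE, and outside muscle and ovary it did not exceed 1.22 RPKM. In ovary they thus stood at 3.19% (TNNI1) and 2.56% (CSRP3) of the muscle level in POST, and at 1.35% and 3.37% in PRE heifers, well over the common share. TNNT1 (10.54 RPKM in POST and 5.94 RPKM in PRE) and MYOM3 (1.51 RPKM in POST and 1.99 RPKM in PRE) were less far above it. TNNI3, the cardiac troponin I, a gene outside the set that was picked after its values were seen, had 104 RPKM in POST and 106 RPKM in PRE ovary, and the other 8 cardiac genes found were each under 2 RPKM there. Beside these, FABP3 (119 RPKM in POST and 7.76 RPKM in PRE) and EEF1A2 (28.0 RPKM in POST and 1.83 RPKM in PRE), both of the other muscle energy genes, and all 7 pituitary hormone genes were at least 4-fold higher in POST ovary.

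In adipose tissue none of 41 genes was at least 4-fold apart, with 1.95% of all genes higher and 0.137% lower in POST adipose tissue. The set was lower as a whole by less: 38 of 41 were below 0 and the median was -0.75, against -0.02 over all genes. At 2-fold 14 (34.1%) were lower and 1 higher, against 1.66% and 4.14% of all genes. ACTA1 had 7.69 RPKM in POST and 17.9 RPKM in PRE, MYLPF 5.05 RPKM in POST and 11.2 RPKM in PRE, TNNT3 8.28 RPKM in POST and 17.4 RPKM in PRE, CKM 3.61 RPKM in POST and 7.56 RPKM in PRE and MB 2.14 RPKM in POST and 4.99 RPKM in PRE adipose tissue. Of the 22 genes chosen by their shares the 21 compared were lower in POST, 8 of them by 2-fold, with a median of -0.94, again a description of chosen genes. MYH1 (3.37 RPKM in POST and 8.37 RPKM in PRE) was lower too.

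Against this direction in adipose tissue went MYOM1 (6.44 RPKM in POST and 3.06 RPKM in PRE, a log2 difference of 1.03) and FBXO32 (6.84 RPKM in POST and 3.36 RPKM in PRE), which were higher in POST heifers. PVALB had 3.44 RPKM in POST and 8.88 RPKM in PRE, MYBPH 3.74 RPKM in POST and 2.91 RPKM in PRE and TCAP 10.9 RPKM in POST and 15.8 RPKM in PRE. TPM1 (93.6 RPKM in POST and 96.7 RPKM in PRE), TPM3 (65.0 RPKM in POST and 71.6 RPKM in PRE) and ATP2A2 (24.7 RPKM in POST and 24.7 RPKM in PRE) hardly differed. Liver plasma protein genes were far higher in POST adipose tissue, 11 of 12 by at least 4-fold, with ALB, albumin, at 1098 RPKM in POST and 17.2 RPKM in PRE, whereas adipocyte genes were not, none of 7 being 4-fold apart. The part of the liver genes in the lower levels of the set was not tested.

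In the liver 35 genes of the set could be compared, and none was 4-fold or 2-fold apart. Of all genes, 0.0221% were higher and 0.059% lower by 4-fold, and 0.303% higher and 0.494% lower by 2-fold. The median was 0.13, against -0.04 over all genes. The highest members were TPM3 (39.8 RPKM in POST and 34.1 RPKM in PRE), TPM1 (23.0 RPKM in POST and 19.9 RPKM in PRE) and ATP2A2 (19.99 RPKM in POST and 27.9 RPKM in PRE), and ACTA1 had 13.5 RPKM in POST and 10.0 RPKM in PRE liver. MYOM1 (2.80 RPKM in POST and 2.03 RPKM in PRE) stood above the common share in both stages. The liver had the lowest summed level of the set, 169.6 RPKM in POST and 159 RPKM in PRE heifers. Its median gene was at 1.19 RPKM in POST and 1.002 RPKM in PRE liver, and that of POST adipose tissue was at 1.18 RPKM.

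Across the 8 tissues, the 4-fold rule was passed by 9 of the 43 genes. The share of all genes passing the rule in at least 1 tissue was not counted, so the 9 cannot be called many or few. MYL3 passed it in uterus and endometrium, MYOM3 in hypothalamus, where it was higher in POST, and in endometrium, where it was lower, and ACTA1, PVALB, CAV3, TPM1, TPM2, TRIM63 and FBXO32 in 1 tissue each. None of these 9 genes did so in muscle.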

How the data were processed

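RNA was measured in 61 libraries of 8 tissues from POST and PRE heifers, grouped by the sample labels into 16 groups. TruSeq libraries gave single reads (HiSeq), shorter ones (GA II) in 2 hypothalamus samples. Mapping, by the authors with CLC Genomics Workbench, was to UMD3.1 (Ensembl release 74), and they deposited, per gene and group, the mean number of unique reads and the mean RPKM, which divides a count by exon length and library total. Which reads each of the 2 columns counts is not given in the sources used here, and unique reads per RPKM differed between muscle and other tissues by at least 2-fold, on the median, for MYBPH, MYOZ2, CKMT2 and CAV3. By the fractions of the mean reads, PRE pituitary gland holds 4 libraries where 3 are labelled, and hypothalamus 3 where 4 are.

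From the deposited means were computed the log2 difference between stages with 0.2 added, for genes at 0.2 RPKM or more in a stage, and each gene's share of its muscle level. The 4-fold rule takes the place of a test, since the values are means. In muscle every member is named, elsewhere the members past 4-fold, the 5 highest and those described, and genes outside the set come from lists of other sarcomere, excitation, energy, myosin heavy chain, cardiac, smooth muscle, endothelial, adipocyte, hepatocyte, pituitary hormone, neuronal, oligodendrocyte, luteal and immunoglobulin genes, at most 4 per list and tissue with the largest differences, myosin heavy chains and TNNI3 excepted. The members and lists were chosen with earlier results of these data known. The counting was tested on simulated data that left out genes of low level, so it was not tested where many members stood outside muscle. Alternatives were 0.05 or 1 added, a 2-fold rule, mean unique reads scaled to the group total (CPM), centring on all genes, and other limits on low values. Protein and promoter sequences were not used here. Python 3.11.15 was used with numpy 2.4.6, pandas 2.3.3 and matplotlib 3.10.9.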

Additional observations from a re-analysis of the deposited data

How the results depend on the processing

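No paired analysis was possible because the values are means of a tissue and stage, and no replicate could be left out for the same reason. Under the alternatives 158 values stayed near those reported (a median difference within 0.1, a count or a share within its limit) and 38 moved. Some of the 158 could not move. In 14 of them all entries of a gene were summed, and no gene of the set had more than 1. The 4-fold counts without a limit on low values were fixed too, since genes under 0.2 RPKM in both stages cannot be 4-fold apart with 0.2 added. With 0.05 added, the genes at least 4-fold higher in hypothalamus were 4 and those lower in adipose tissue 1, and the median differences were 0.91 in hypothalamus and -0.93 in adipose tissue. With 1 added, the genes 4-fold higher in hypothalamus were 0, 1 was lower in pituitary gland and 3 in endometrium, and the medians were 0.51 in hypothalamus, 0.21 in endometrium, -0.24 in ovary and -0.51 in adipose tissue. Under a 2-fold rule the genes higher were 1 in muscle, 18 in hypothalamus, 8 in endometrium and 1 in adipose tissue, and those lower were 1 in muscle, 5 in pituitary gland, 2 in uterus, 4 in ovary and 14 in adipose tissue. Centred on all genes, the pituitary median was 0.0748, and with a lowest mean RPKM of 1 the adipose median was -0.90. In CPM the medians were -0.12 in uterus, where the reported one was 0.04, 0.28 in endometrium and -0.57 in ovary. CPM, tried after the data were seen, also raised the median share of the muscle level, to 0.217% in POST and 0.133% in PRE hypothalamus, 0.147% in POST and 0.146% in PRE pituitary gland, 0.193% in POST and 0.158% in PRE uterus, 0.148% in POST and 0.175% in PRE endometrium, 0.202% in POST and 0.306% in PRE ovary, 0.10003% in POST and 0.162% in PRE adipose tissue, and 0.0738% in PRE liver. That exceeded 1.5 times the RPKM share in PRE endometrium, PRE ovary and POST adipose tissue, and the order of the stages changed in endometrium and pituitary gland. The main limits are the missing spread between heifers and the few reads behind low values: MYL3 in PRE endometrium rests on 1.33 mean reads and CAV3 in POST pituitary gland on 3.25.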

Other observations

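Genes of other cell types, read from the same means by the same 4-fold rule, gave further differences between the stages that touch tissues described above. In the pituitary gland the small heat shock genes HSPB6 (1.19 RPKM in POST and 11.1 RPKM in PRE) and HSPB7 (0.361 RPKM in POST and 2.59 RPKM in PRE), and FXYD1, a regulator of the sodium pump (7.69 RPKM in POST and 72.6 RPKM in PRE), were lower in POST heifers. MYL4, an atrial light chain, was the 1 cardiac gene that was 4-fold apart, and it was lower in POST pituitary (0.333 RPKM in POST and 2.91 RPKM in PRE) and POST endometrium (0.242 RPKM in POST and 4.52 RPKM in PRE). COX8B, the muscle form of a cytochrome oxidase subunit, was higher in POST adipose tissue (11.8 RPKM in POST and 0.817 RPKM in PRE) and lower in POST pituitary gland (0.194 RPKM in POST and 1.81 RPKM in PRE).

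Of the neuronal genes, 4 of 6 compared were higher in POST ovary, and STMN2 was lower in POST uterus (0.465 RPKM in POST and 9.34 RPKM in PRE) and POST endometrium (1.63 RPKM in POST and 18.9 RPKM in PRE). Of the luteal and granulosa genes, 4 of 8 were higher in POST ovary, where STAR, which brings cholesterol into mitochondria for steroid synthesis, had 652 RPKM in POST and 35.2 RPKM in PRE. Of the oligodendrocyte genes MBP in pituitary gland was the only one apart in any of the 8 tissues. Of the immunoglobulin genes IGLL1 was higher in POST hypothalamus (175 RPKM in POST and 1.70 RPKM in PRE), POST pituitary gland (113 RPKM in POST and 14.3 RPKM in PRE), POST muscle (8.15 RPKM in POST and 0.66 RPKM in PRE) and POST adipose tissue (14.7 RPKM in POST and 3.48 RPKM in PRE), and lower in POST endometrium (4.50 RPKM in POST and 39.7 RPKM in PRE).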
